A study of Homo sapiens with 21 samples.

Results

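Expression of 6 genes of 2 calcium-linked ion channel systems was examined in HCC1806, an established human triple-negative breast cancer cell line grown as an adherent culture. They were TRPC6 and TRPC1, which encode canonical transient receptor potential (TRPC) channels, KCNMA1, which encodes the pore-forming subunit of the large-conductance calcium-activated potassium (BK) channel, and KCNMB4, LRRC38 and LRRC26, which encode auxiliary BK subunits. The 6 members were the rows of 60668 Ensembl gene identifiers whose symbols matched these names, and 5 of the 6 passed the filter on low counts in both deposited tables, LRRC26 being the exception. The members were chosen by measured values, namely their fold changes against control in these same libraries. The fold changes of TRPC6 and KCNMA1 in 3XSR, of TRPC6 in 1xSRSF3 and of LRRC38 in 1xSRSF2 were among the largest of their comparisons, so the levels and fold changes of the 6 genes are given as descriptions, without p-values.

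RNA-seq counts came from 21 libraries in 7 groups of 3. The first table held cells labelled as control (3XCTL), cells labelled 3XSR, which by the series title overexpress the splicing factors SRSF2, SRSF3 and SRSF7 together, and cells labelled as overexpressing the transcription factor MYC (MYC-OE). The second held a single plasmid control (1xCtrl) and cells labelled as overexpressing SRSF2 (1xSRSF2), SRSF3 (1xSRSF3) or SRSF7 (1xSRSF7) alone. All groups shared the cell line, the medium with serum and harvest near confluence. The vectors, their promoters, whether a line was 1 clone and whether the replicates were separate cultures are not given in the sources used here, so the spread between libraries may be technical. Totals ranged from 143269192 to 303323552 counts per library. Levels are given in CPM, the count of a gene per unit of library size after TMM scaling, and a gene is called where its edgeR p-value, adjusted over all genes tested, was under 0.05. For the 6 members a call, in any of the comparisons, describes the fit to the libraries they were chosen on and is no independent evidence. SRSF3 and SRSF7 were higher in 3XSR and in their own single lines than in the controls, and MYC was higher in MYC-OE (174 CPM) and in 3XSR (157 CPM) than in 3XCTL (93.4 CPM). These rises were not confined to those lines. In the libraries labelled 1xSRSF2, SRSF3 and SRSF7 were also called higher (log2 fold changes 0.30 and 0.24). MYC was called higher in 1xSRSF3 (0.26) and 1xSRSF7 (0.27), and SRSF2 was called lower in MYC-OE (-0.48) and 1xSRSF7 (-0.38). The SRSF2 gene itself was not higher in the group labelled 1xSRSF2 (398 CPM against 444 in 1xCtrl) or in those labelled 3XSR (386 against 403 CPM in 3XCTL), so directions for these groups hold for libraries with those labels. The epithelial and basal markers KRT5, KRT6A, KRT14, EGFR, EPCAM, CDH1 and KRT18 were each at 281 CPM or more in all 21 libraries. The others of these lists were lower, KRT8 between 249 and 603 CPM and KRT17 between 45.2 and 220 CPM. Of the receptor genes, ERBB2 was between 99.6 and 184 CPM and ESR1 between 6.49 and 11.5 CPM, while PGR reached at most 1.46 CPM.

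TRPC channels are tetramers that let sodium and calcium into the cell after phospholipase C has been activated, and TRPC6 is opened directly by diacylglycerol. BK channels open in response to depolarisation and to a rise in calcium at the inner face of the membrane, and the potassium they release pulls the membrane potential back. Their beta subunits (KCNMB genes) and the leucine-rich repeat gamma subunits (LRRC26, LRRC38, LRRC52 and LRRC55) shift the voltage and calcium at which the pore opens.

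In GENCODE release 29 (GRCh38), TRPC6 lies on chromosome 11 from 101451564 to 101872562 on the minus strand, TRPC1 on chromosome 3 from 142724074 to 142807888 on the plus strand and KCNMA1 on chromosome 10 from 76869601 to 77638369 on the minus strand. KCNMB4 lies on chromosome 12 from 70366276 to 70434292 on the plus strand, LRRC38 on chromosome 1 from 13474977 to 13514048 on the minus strand and LRRC26 on chromosome 9 from 137168758 to 137170051 on the minus strand. The promoters of TRPC6, KCNMA1 and LRRC38 are shown because these 3 genes had the largest fold changes of the set in 3XSR. The sequences are the 250 bases before a gene start listed by RefSeq (GRCh38.p14), written 5′ to 3′ on the gene's strand, with matches to GGGCGG (the GC box, either strand) in capitals.
TRPC6, chr11:101584008-101584257, minus strand: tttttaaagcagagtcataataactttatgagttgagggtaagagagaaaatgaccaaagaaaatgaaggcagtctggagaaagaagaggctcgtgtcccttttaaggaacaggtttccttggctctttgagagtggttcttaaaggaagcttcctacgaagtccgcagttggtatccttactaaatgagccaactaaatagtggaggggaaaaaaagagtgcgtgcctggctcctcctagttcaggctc
KCNMA1, chr10:77637809-77638058, minus strand: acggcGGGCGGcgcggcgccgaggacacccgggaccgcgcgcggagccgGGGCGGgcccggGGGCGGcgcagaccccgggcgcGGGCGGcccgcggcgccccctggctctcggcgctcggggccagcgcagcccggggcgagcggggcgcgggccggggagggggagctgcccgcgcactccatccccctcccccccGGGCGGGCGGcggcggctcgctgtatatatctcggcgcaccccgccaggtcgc
LRRC38, chr1:13514004-13514253, minus strand: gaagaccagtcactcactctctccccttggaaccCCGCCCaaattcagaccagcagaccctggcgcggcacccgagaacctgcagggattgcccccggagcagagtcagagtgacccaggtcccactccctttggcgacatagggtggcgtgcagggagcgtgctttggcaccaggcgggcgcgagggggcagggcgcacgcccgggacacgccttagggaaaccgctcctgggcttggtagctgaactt

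The 3 windows differed in composition. G and C made up 43.2% of the TRPC6 window, 85.6% of that of KCNMA1 and 65.6% of that of LRRC38, where the median of all 35114 windows was 58.0%. GGGCGG on either strand matched 6 times in the KCNMA1 window, 1 time in the LRRC38 window and 0 times in that of TRPC6, and 42.6% of all windows held at least 1 match. Neither CACGTG (the canonical E-box, a palindrome that MYC with MAX can bind), which 6.35% of all windows held, nor TATAAA on either strand, which 10.7% held, matched in any of the 3. Matches of GGGCGG could overlap each other, and these letters describe the windows alone. RefSeq lists a second KCNMA1 start, whose window held 53.6% G and C and 0 matches of GGGCGG. The GENCODE gene model of TRPC6 extends upstream of the TRPC6 start used here. Which starts these cells use was not tested.

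TRPC6 had the widest range of the 6 genes. Its level was 1.05, 1.25 and 1.07 CPM in the 3 libraries of 3XCTL and 22.1, 23.9 and 23.7 CPM in those of 3XSR. MYC-OE lay between them, at 8.90, 7.82 and 8.16 CPM. The 3 groups did not overlap, and the mean was 20.7-fold higher in 3XSR and 7.39-fold higher in MYC-OE than in 3XCTL. The log2 fold changes from the edgeR fit were 4.37 (SE 0.0973) and 2.89 (SE 0.0923). In the second table TRPC6 was at 6.99, 5.59 and 6.37 CPM in 1xCtrl and at 49.1, 43.0 and 45.2 CPM in 1xSRSF3, a 7.24-fold difference of the means and a log2 fold change of 2.86 (SE 0.114). The libraries labelled 1xSRSF2 had 7.17, 7.61 and 7.28 CPM, a log2 fold change of 0.22 (SE 0.108) that was not called. In 1xSRSF7 TRPC6 was below its control in every library, at 4.74, 5.30 and 3.96 CPM, with a log2 fold change of -0.44 (SE 0.108). That call was lost when only the 2 groups entered the fit (log2 fold change also -0.44).

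TRPC1, which forms channels mainly together with other TRPC subunits, moved much less. It measured 0.871, 1.35 and 1.06 CPM in 3XCTL, 2.96, 2.55 and 2.58 CPM in 3XSR and 2.65, 2.66 and 2.85 CPM in MYC-OE. Both groups lay above the control libraries and overlapped each other, with log2 fold changes of 1.30 (SE 0.155) in 3XSR and 1.32 (SE 0.155) in MYC-OE. In the second table TRPC1 measured 4.26, 3.19 and 4.25 CPM in 1xCtrl and 2.82, 2.63 and 3.06 CPM in the libraries labelled 1xSRSF2, a log2 fold change of -0.46 (SE 0.140). Leaving out 1xCtrl replicate 1 or 3 or 1xSRSF2 replicate 2 ended that call, with log2 fold changes of -0.44, -0.43 and -0.44. In 1xSRSF3 (4.20, 3.43 and 3.96 CPM) and 1xSRSF7 (3.15, 3.66 and 4.01 CPM) TRPC1 overlapped 1xCtrl, and neither log2 fold change was called (-0.012, SE 0.139, and -0.11, SE 0.139).

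KCNMA1 was higher than the control in all 5 overexpressing groups. Its 3 libraries of 3XCTL had 1.26, 1.04 and 1.28 CPM, against 12.9, 12.4 and 12.6 CPM in 3XSR and 12.3, 13.9 and 14.2 CPM in MYC-OE. The means were 10.6-fold and 11.3-fold above the control, with log2 fold changes of 3.40 (SE 0.103) and 3.49 (SE 0.103), and the libraries of 3XSR and MYC-OE overlapped. In 1xCtrl KCNMA1 was at 7.15, 7.59 and 6.85 CPM. It reached 11.6, 11.1 and 11.5 CPM in the libraries labelled 1xSRSF2, 18.3, 17.2 and 16.4 CPM in 1xSRSF3 and 12.3, 12.2 and 11.8 CPM in 1xSRSF7. None of the 3 single lines overlapped 1xCtrl, and the log2 fold changes were 0.67 (SE 0.0725), 1.26 (SE 0.0731) and 0.75 (SE 0.0725). KCNMA1 shares 419 of its 35644 exon bases with KCNMA1-AS1 on the opposite strand, and the strand setting of the counting is not given in the sources used here. Adding the counts of that gene changed no direction or call of KCNMA1.

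LRRC38, the gamma subunit gene, followed another order. It measured 0.406, 0.513 and 0.367 CPM in 3XCTL, 4.19, 4.21 and 3.61 CPM in 3XSR and 6.97, 6.43 and 7.13 CPM in MYC-OE. The 3 groups did not overlap, and the log2 fold changes were 3.22 (SE 0.138) in 3XSR and 3.997 (SE 0.141) in MYC-OE. In the second table the highest values were in the libraries labelled 1xSRSF2, at 9.05, 10.96 and 10.8 CPM against 2.22, 2.20 and 2.53 CPM in 1xCtrl (log2 fold change 2.15, SE 0.122). LRRC38 was at 6.97, 5.79 and 7.16 CPM in 1xSRSF3 (1.52, SE 0.120), above every control library. In 1xSRSF7 it was at 2.64, 2.28 and 2.34 CPM and overlapped 1xCtrl (0.064, SE 0.118, not called). LRRC38 shares 122 of its 2209 exon bases with AL354712.1 on the opposite strand, and adding the counts of that gene changed no direction or call of LRRC38.

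KCNMB4, the beta subunit best known from brain, was low in all groups. Its libraries had 0.137, 0.146 and 0.433 CPM in 3XCTL, 0.384, 0.426 and 0.538 CPM in 3XSR and 1.03, 1.13 and 1.10 CPM in MYC-OE. MYC-OE lay above both other groups, with a log2 fold change against 3XCTL of 2.20 (SE 0.382), which was 2.94 without 3XCTL replicate 3. 3XSR overlapped 3XCTL and was not called (0.92, SE 0.382), but the value was 1.66 and was called without 3XCTL replicate 3, which had 78 counts where the other 2 control libraries had 33 and 27, and it was 1.03 and was called with the replicate block. In the second table KCNMB4 measured 0.650, 0.334 and 0.326 CPM in 1xCtrl and 1.34, 0.932 and 1.29 CPM in 1xSRSF7, groups that did not overlap (1.45, SE 0.271). The libraries labelled 1xSRSF2 had 0.648, 0.635 and 0.609 CPM and 1xSRSF3 had 0.478, 0.324 and 0.498 CPM, and both overlapped 1xCtrl. Their log2 fold changes were 0.53 (SE 0.270) and -0.0062 (SE 0.273), neither called, although the former was 0.87 and was called without 1xCtrl replicate 1.

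LRRC26, the gamma subunit that lets BK channels open near resting voltage in secretory epithelia, was at or near 0. It had 1 count in 3XSR replicate 2, 1 count in 1xSRSF3 replicate 1 and 0 counts in the other 19 libraries. A count of 0 allows up to 3 counts, which is at most 0.0210 CPM at these depths and covers counting error only. LRRC26 shares 332 of its 1209 exon bases with AL929554.1 on the same strand, so reads of LRRC26 could have been assigned to that gene, which was not tested.

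**Figure D1:**
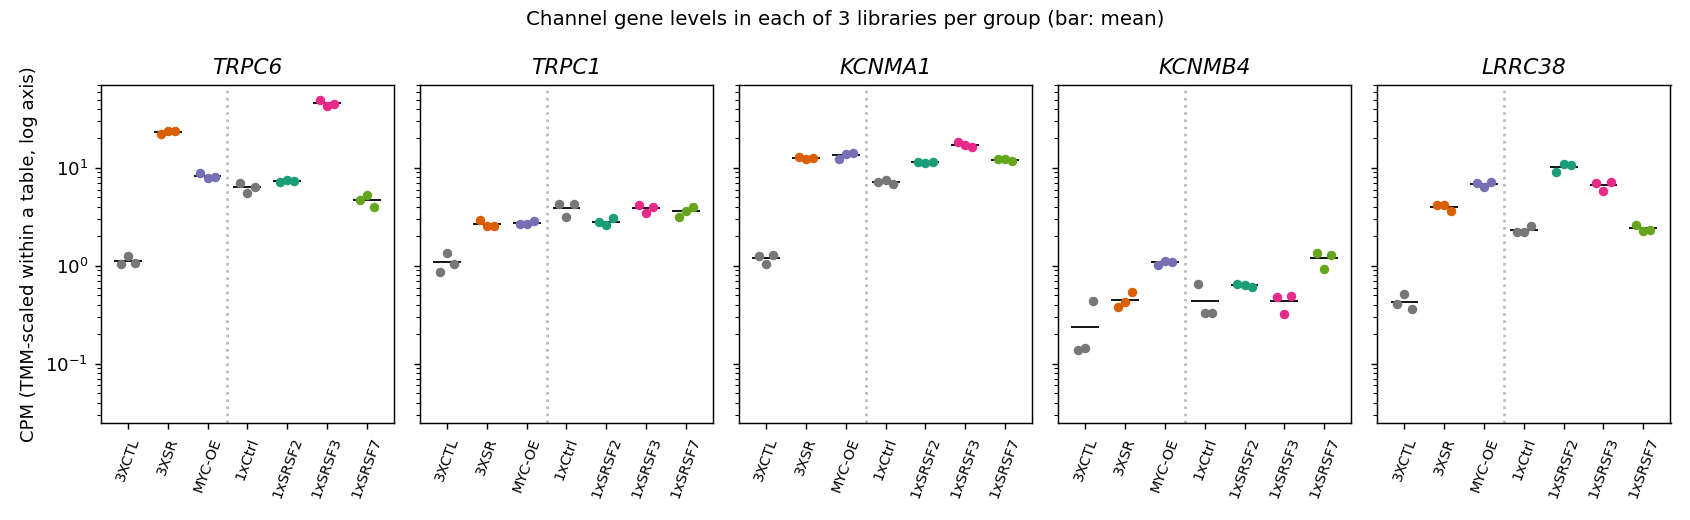
Level of 5 channel genes in each library. The vertical log axis gives CPM scaled within a table, each point is 1 library, the bar is the mean of 3, and the dotted line parts the first table from the second. TRPC6 lies near 45.8 CPM in 1xSRSF3 and near 1.12 CPM in 3XCTL, and 3XCTL has the lowest mean in all 5 panels.

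Per kilobase of exon, which allows genes to be set side by side, TRPC6 was the most abundant of the set in 1xSRSF3 (8.26 CPM per kb) and 3XSR (4.20), whereas LRRC38 led in the libraries labelled 1xSRSF2 (4.65) and in MYC-OE (3.10). KCNMA1 had between 0.0335 CPM per kb in 3XCTL and 0.485 in 1xSRSF3. Its exon length, 35644 bases over all annotated transcripts, exceeds that of a single transcript, so its level per kb is a low estimate. LRRC38 was above KCNMA1 on this scale in all 7 groups but below it in CPM in each of them, so their order depends on the exon length used.

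Other genes of the same families were mostly silent. TRPC7 had 0 counts in all 21 libraries, as had the BK subunit genes KCNMB1 and LRRC52. TRPC5 had counts in 2 libraries, with at most 7 counts, KCNMB2 had 7 counts in 1 library, and LRRC55 had at most 7 counts in any library. TRPC4 and KCNMB3 were the others that passed the filter. TRPC4, a further channel of the TRPC family, rose in 3XSR (1.56 CPM ± 0.0696, SD, n = 3, against 0.395 ± 0.156 in 3XCTL; log2 fold change 1.99 with SE 0.259, adjusted p = 0.000153 by edgeR) and in MYC-OE (1.89 CPM ± 0.248; 2.27, SE 0.260, edgeR adjusted p = 3.93e-05). It fell in the libraries labelled 1xSRSF2 (0.832 CPM ± 0.0351 against 1.36 ± 0.266 in 1xCtrl; -0.71, SE 0.156, edgeR adjusted p = 0.0050). TRPC4 was not called in 1xSRSF3 (-0.31, SE 0.155, edgeR adjusted p = 0.153) or 1xSRSF7 (0.039, SE 0.154, edgeR adjusted p = 0.903). The former was called with total counts alone (-0.42), with the GC trend removed (-0.39) or without 1xCtrl replicate 2 (-0.48). KCNMB3, a beta subunit gene, had log2 fold changes of 0.36 in 3XSR (SE 0.0927; adjusted p = 0.0119 by edgeR) and 0.29 in MYC-OE (SE 0.0925; adjusted p = 0.0281 by edgeR) and was not called in the single lines. The KCNMB3 call in 3XSR was lost with the GC trend removed (0.23) and without 3XCTL replicate 3 (0.33), 3XSR replicate 2 (0.28) or 3XSR replicate 3 (0.33). That in MYC-OE was lost without 3XCTL replicate 1 (0.30) or 3 (0.27) or any one MYC-OE replicate (from 0.27 to 0.31). KCNMB3 shares 3403 of its 8979 exon bases with PIK3CA on the opposite strand and 864 with the pseudogene LRRFIP1P1 on its own strand, so its counts are uncertain.

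**Figure D2:**
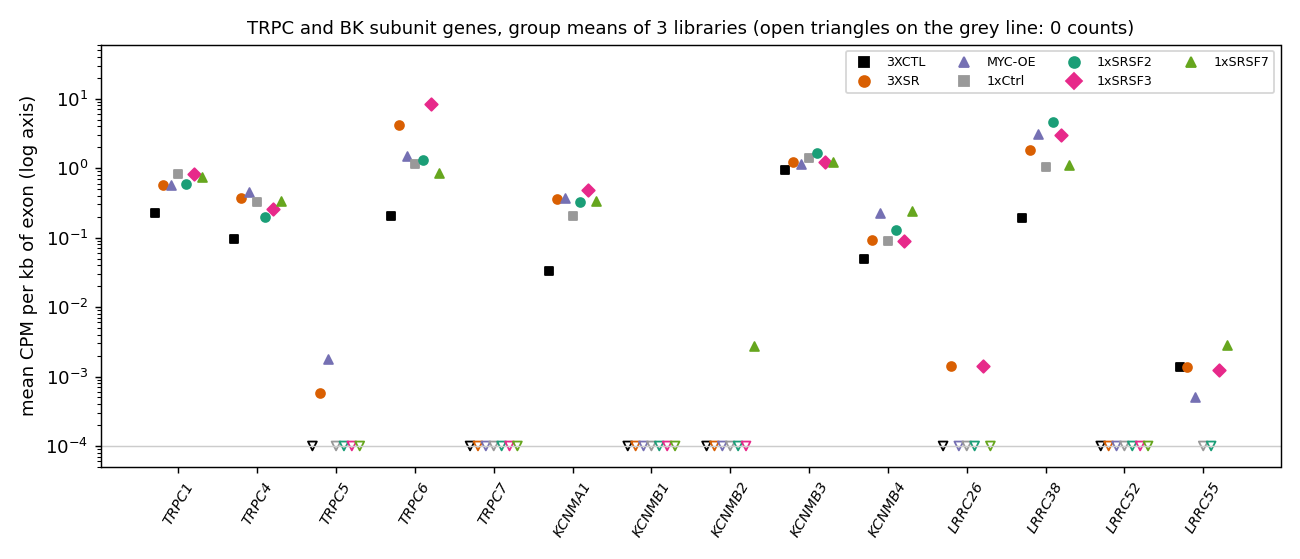
Mean level of TRPC and BK subunit genes in the 7 groups. The vertical log axis gives CPM per kb of exon, each symbol is the mean of 3 libraries, and open triangles on the grey line are groups with 0 counts. TRPC1, TRPC4, TRPC6, KCNMA1, KCNMB3, KCNMB4 and LRRC38 are present in every group and the rest lie near or at 0.

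The 2 controls also differed in these genes. With both tables scaled together, TRPC6 was at 1.13 CPM ± 0.108 (SD, n = 3) in 3XCTL and at 6.33 ± 0.661 in 1xCtrl, and KCNMA1 at 1.197 ± 0.137 and 7.22 ± 0.465. LRRC38 was at 0.430 ± 0.0757 and 2.32 ± 0.165 CPM, and TRPC1 at 1.10 ± 0.242 and 3.91 ± 0.576. The log2 differences, 3XCTL minus 1xCtrl, were -2.48 for TRPC6, -2.59 for KCNMA1, -2.42 for LRRC38, -1.84 for TRPC1 and -0.97 for KCNMB4, where the median over 25013 genes was -0.022. A difference of -1 or lower was found for 7.69% of those genes. The control cells and the table are the same division of the libraries, so the 2 cannot be told apart. The controls were not tested against each other.

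Every fold change in the first table rests on the low 3XCTL libraries, which 3XSR and MYC-OE share. Lines were also set against the control of the other table, in a joint edgeR fit added after the data had been seen. In such a pair line and table cannot be told apart, so here and below a table difference enters each value and call. Against 1xCtrl the log2 fold changes in 3XSR were 1.88 for TRPC6, 0.81 for KCNMA1 and 0.79 for LRRC38. All were called and higher, beside 15.4% of all genes called and 8.20% called higher. In MYC-OE the log2 fold changes of these genes were 0.39, 0.90 and 1.57, also called and higher, beside 34.7% and 16.3%. KCNMB4 had 0.041 in 3XSR, not called, and 1.32 in MYC-OE, called. TRPC1 changed sign and was called lower, by -0.53 in 3XSR and -0.52 in MYC-OE. TRPC4 had log2 fold changes of 0.20 (edgeR adjusted p = 0.599) and 0.48 (edgeR adjusted p = 0.0853) against 1xCtrl, and KCNMB3 had -0.20 (edgeR adjusted p = 0.301) and -0.27 (edgeR adjusted p = 0.0950). Set against 3XCTL, in turn, TRPC6, KCNMA1, LRRC38 and TRPC1 were called higher in each of the 3 single lines, TRPC6 in 1xSRSF7 included (2.05), beside 17.5% of all genes called higher in the libraries labelled 1xSRSF2, 21.1% in 1xSRSF3 and 17.1% in 1xSRSF7.

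**Figure D3:**
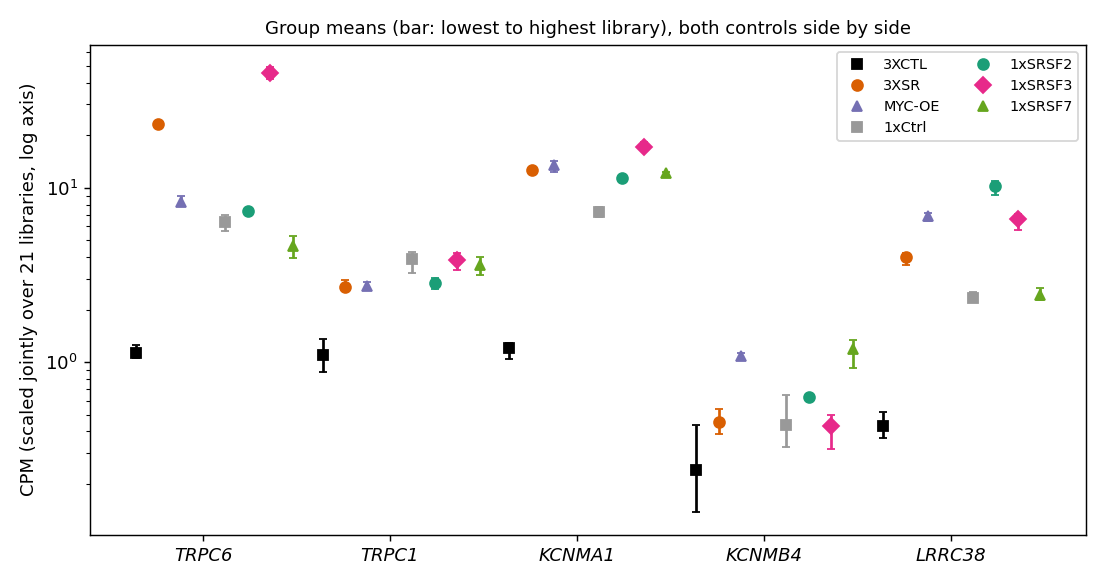
Levels of 5 channel genes with both tables scaled together. The vertical log axis gives CPM, each symbol is the mean of 3 libraries of a group and the bar runs from the lowest to the highest library. The black squares of 3XCTL lie below the grey squares of 1xCtrl for every gene, by -2.48 on the log2 scale for TRPC6, and their ranges overlap for KCNMB4 alone.

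On this joint scale the order of the groups differed between the genes. TRPC6 fell from 1xSRSF3 (45.4 CPM) through 3XSR (23.3), MYC-OE (8.32), the libraries labelled 1xSRSF2 (7.32), 1xCtrl (6.33) and 1xSRSF7 (4.66) to 3XCTL (1.13), and no neighbours in that order overlapped. KCNMA1 ran from 1xSRSF3 (17.2 CPM) through MYC-OE (13.5), 3XSR (12.6), 1xSRSF7 (12.1), the libraries labelled 1xSRSF2 (11.4) and 1xCtrl (7.22) to 3XCTL (1.197), and only MYC-OE and 3XSR overlapped as neighbours. LRRC38 ran from the libraries labelled 1xSRSF2 (10.2 CPM) through MYC-OE (6.87), 1xSRSF3 (6.59), 3XSR (4.01), 1xSRSF7 (2.42) and 1xCtrl (2.32) to 3XCTL (0.430). Its neighbours MYC-OE and 1xSRSF3 overlapped, as did 1xSRSF7 and 1xCtrl. TRPC1 was highest in 1xCtrl (3.91 CPM) and overlapped there with 1xSRSF3 (3.84) and 1xSRSF7 (3.60), and the libraries labelled 1xSRSF2 (2.82), MYC-OE (2.73) and 3XSR (2.70) overlapped as neighbours above 3XCTL. KCNMB4 was highest in 1xSRSF7 (1.19 CPM) and MYC-OE (1.09), which overlapped. The libraries labelled 1xSRSF2 (0.628 CPM) stood apart from both neighbours, and 3XSR (0.450), 1xCtrl (0.438), 1xSRSF3 (0.430) and 3XCTL (0.239) overlapped as neighbours.

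Of the 5 tested members, 4 were called in 3XSR against 3XCTL, all higher, where 29.0% of the genes tested were called and 15.3% were called higher. All 5 were called in MYC-OE, each higher, where the shares were 35.3% and 18.0%. In the libraries labelled 1xSRSF2 3 were called, KCNMA1 and LRRC38 higher and TRPC1 lower, beside 23.5% of all genes called, 11.6% higher and 11.9% lower. In 1xSRSF3 TRPC6, KCNMA1 and LRRC38 were called, each higher, beside 29.2% and 15.0%. In 1xSRSF7 KCNMA1 and KCNMB4 were called higher and TRPC6 lower, beside 17.3% called, 9.03% higher and 8.26% lower. The set was formed with these contrasts known, so nothing is read from the counts. The median log2 fold change of the 5 members was 3.22 in 3XSR, 2.89 in MYC-OE, 0.53 in the libraries labelled 1xSRSF2, 1.26 in 1xSRSF3 and 0.064 in 1xSRSF7, and that of all genes tested lay between -0.025 and -0.0038. These medians leave out LRRC26, which was not tested.

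**Figure D4:**
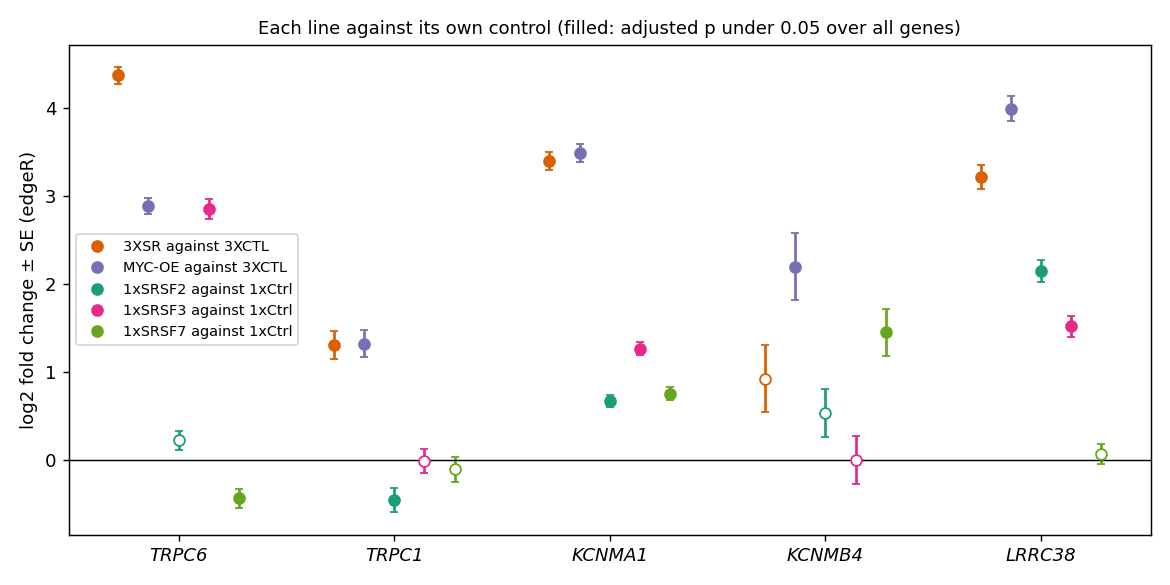
Log2 fold change of 5 channel genes in each line against the control of its own table. Points are the edgeR estimates with their SE as bars, over 3 libraries a group, and filled points passed an adjusted p of 0.05 over all genes. KCNMA1 is filled and above 0 in all 5 lines, TRPC6 runs from 4.37 in 3XSR to -0.44 in 1xSRSF7, and the 2 lines of the first table share their control.

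Lines were also set against each other within a table. MYC-OE had less TRPC6 than 3XSR (log2 difference -1.49, SE 0.0847), more LRRC38 (0.77, SE 0.122) and more KCNMB4 (1.27, SE 0.367), and these 3 were called, beside 34.9% of all genes. The KCNMB4 call was lost without 3XSR replicate 1 (1.17) or 2 (1.25) or MYC-OE replicate 2 (1.25) or 3 (1.27). KCNMA1 (0.090, SE 0.0912) and TRPC1 (0.015, SE 0.151) were not called between the 2 lines. 1xSRSF3 differed from the libraries labelled 1xSRSF2 in TRPC6 (2.64, SE 0.113), KCNMA1 (0.60, SE 0.0721), LRRC38 (-0.63, SE 0.117) and TRPC1 (0.45, SE 0.140), 4 of the 5 members, beside 26.8% of all genes. The TRPC1 call was lost with upper-quartile scaling (0.39), with the GC trend removed (0.28) and without 1xSRSF2 replicate 1 or 2 or 1xSRSF3 replicate 1 or 3 (from 0.38 to 0.44). 1xSRSF3 differed from 1xSRSF7 in TRPC6 (3.30, SE 0.116), KCNMA1 (0.51, SE 0.0720), LRRC38 (1.46, SE 0.119) and KCNMB4 (-1.45, SE 0.270), beside 35.2% of all genes. The libraries labelled 1xSRSF2 differed from 1xSRSF7 in LRRC38 (2.09, SE 0.121), TRPC6 (0.66, SE 0.108) and KCNMB4 (-0.91, SE 0.265), beside 24.2% of all genes. The KCNMB4 call was lost without any one replicate of the libraries labelled 1xSRSF2 and without 1xSRSF7 replicate 1 or 3 (from -0.96 to -0.84). TRPC1 was not called in that comparison (-0.35, SE 0.140), but was with total counts alone (-0.41), with only the 2 groups in the fit (-0.36) and without 1xSRSF7 replicate 1 (-0.45).

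The step from control to 3XSR was compared with each single step in a joint fit, every step being measured from its own control. For TRPC6 the step in 3XSR exceeded that in 1xSRSF3 by 1.53 on the log2 scale (SE 0.141), that in the libraries labelled 1xSRSF2 by 4.16 (SE 0.146) and that in 1xSRSF7 by 4.82 (SE 0.147). For KCNMA1 the excess was 2.15 (SE 0.115), 2.74 (SE 0.115) and 2.66 (SE 0.115) in the same order. For LRRC38 it was 1.71 (SE 0.176), 1.08 (SE 0.175) and 3.16 (SE 0.178). For TRPC1 it was 1.33 (SE 0.208), 1.77 (SE 0.209) and 1.42 (SE 0.208). Each difference also holds the gap between the 2 controls (-2.48 for TRPC6), which the SE does not cover. On the joint scale 3XSR was below 1xSRSF3 for these 4 genes (TRPC6 at 23.3 against 45.4 CPM). There 3XSR was above the libraries labelled 1xSRSF2 for TRPC6 and KCNMA1 and below them for LRRC38 and TRPC1. It was above 1xSRSF7 for TRPC6, KCNMA1 and LRRC38 and below it for TRPC1. The differences reuse the fold changes the members were chosen by, so nothing is read from their calls. Called were these 4 genes in all 3 differences, beside 17.8%, 21.9% and 24.6% of all genes, and KCNMB4 in none of them, though without 3XCTL replicate 3 it was called against 1xSRSF3 (1.67) and the libraries labelled 1xSRSF2 (1.12).

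The genes whose pattern was most like that of the channels were taken from 2210 genes at a mean of at least 1 CPM, by Pearson's r over the 21 libraries of log2 CPM minus the mean of the control of the same table. The libraries share their groups and controls, so r describes the pattern alone. For TRPC6 these were DSCAM, a cell adhesion gene (r = 0.994), HEPHL1, a relative of the ferroxidase hephaestin (0.987), IL13RA2, a decoy receptor for interleukin 13 (0.984), CPM, the carboxypeptidase M gene (0.984), and ABCA1, the cholesterol exporter (0.983). DSCAM stood 2.11 above control in 3XSR, 1.41 in MYC-OE and 1.51 in 1xSRSF3 on that scale, and -0.26 in 1xSRSF7. For KCNMA1 they were KCNS1, a silent subunit of voltage-gated potassium channels (0.987), ALOX12, a lipoxygenase (0.986), and GNG11, a G protein gamma subunit (0.983). For LRRC38 they were PTHLH, the parathyroid hormone-like hormone (0.978), KIAA1549L (0.971) and SAMD3 (0.966).

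Genes that act with these channels were read from the same fits, in lists of 106 genes that leave out the members and were also drawn up with earlier results known. They hold the other TRPC and BK subunit genes, so the calls of TRPC4 and KCNMB3 given above are counted again. They also cover the other potassium channels gated by calcium or sodium, other TRP channels, the Gq and phospholipase C step that opens TRPC channels, calcium stores, calcium extrusion, calcineurin with NFAT, and voltage-gated calcium channels, which can feed calcium to BK channels. In 3XSR 34 of 83 tested genes were called, 21 higher and 13 lower, or 41.0% beside 29.0% of all genes, with a median log2 fold change of 0.041 beside -0.0038. Against 1xCtrl, in the joint fit, 12 of 87 were called, or 13.8% beside 15.4% of all genes. In MYC-OE 41 of 83 were called, 27 higher and 14 lower, or 49.4% beside 35.3%, with a median of 0.17 beside -0.0046. Set against 1xCtrl in the joint fit, 32 of 87 were called in MYC-OE, or 36.8% beside 34.7% of all genes. In the libraries labelled 1xSRSF2 18 of 84 were called, 5 higher and 13 lower, or 21.4% beside 23.5% of all genes (median -0.069 beside -0.011). In 1xSRSF3 28 of 84 were called, 9 higher and 19 lower, or 33.3% beside 29.2% (-0.019 beside -0.025), and in 1xSRSF7 18 of 84, 10 higher and 8 lower, or 21.4% beside 17.3% (0.064 beside -0.0048). With the GC trend removed 32, 46 and 32 were called in these 3 lines, and in 1xSRSF7 11 with only the 2 groups in the fit and 35 without 1xCtrl replicate 2. The share of all genes called under these settings was not computed, so nothing is read from these counts. Single genes of these lists are named below for at most 3 rises and 3 falls per comparison. A line not given for a gene may therefore also have changed.

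CACNA2D1, an auxiliary subunit of voltage-gated calcium channels, rose in 3XSR (10.9 CPM against 1.80; log2 fold change 2.60 with SE 0.141, adjusted p = 1.23e-07 by edgeR) and MYC-OE (8.55 CPM; 2.25, SE 0.139, edgeR adjusted p = 2.09e-07). TRPA1, a TRP channel opened by electrophiles, rose in 3XSR (4.02 CPM against 1.13; 1.84, SE 0.137, edgeR adjusted p = 1.59e-06) and MYC-OE (9.73 CPM; 3.11, SE 0.142, edgeR adjusted p = 1.69e-08). Both shared the control gap, with joint levels of 1.80 CPM ± 0.265 in 3XCTL and 12.01 ± 1.55 in 1xCtrl for CACNA2D1 and of 1.13 ± 0.191 and 4.34 ± 0.770 for TRPA1 (SD, n = 3). Against 1xCtrl CACNA2D1 changed sign in 3XSR (-0.14, edgeR adjusted p = 0.496) and MYC-OE (-0.49, edgeR adjusted p = 0.00425), and TRPA1 in 3XSR (-0.10, edgeR adjusted p = 0.680). In the second table TRPA1 rose in the libraries labelled 1xSRSF2 (0.80, SE 0.139, edgeR adjusted p = 0.00121) and 1xSRSF7 (1.05, SE 0.139, edgeR adjusted p = 0.000440). CACNA2D1 rose in 1xSRSF3 (0.70, SE 0.108, edgeR adjusted p = 0.000346) and fell in the libraries labelled 1xSRSF2 (-0.47, SE 0.108, edgeR adjusted p = 0.00715). TRPA1 shares 981 of its 6377 exon bases with MSC-AS1 on the opposite strand.

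Among the other TRP channels, TRPM7, a channel fused to a kinase, fell in MYC-OE (57.3 against 107 CPM; -0.90, SE 0.0607, edgeR adjusted p = 4.52e-07) and in the libraries labelled 1xSRSF2 (54.0 against 80.6 CPM; -0.58, SE 0.0744, edgeR adjusted p = 0.000144). The mean of TRPM7 was also below the control in 3XSR (73.9 CPM), 1xSRSF3 (67.4 CPM) and 1xSRSF7 (63.8 CPM). TRPV1, the capsaicin receptor, fell in 3XSR (-0.55, edgeR adjusted p = 0.00191), MYC-OE (-0.84, edgeR adjusted p = 6.62e-05) and 1xSRSF7 (-0.50, edgeR adjusted p = 0.0103), although the last call was lost without 1xSRSF7 replicate 2 (-0.51), and TRPV1 shares 1519 of 5519 exon bases with AC027796.3 on its own strand. TRPV3 rose in the libraries labelled 1xSRSF2 (0.87, SE 0.0764, edgeR adjusted p = 8.65e-06). Its mean was above the control in every other line too, at 20.6 CPM in 1xSRSF3 against 14.6 in 1xCtrl. MCOLN3, an endolysosomal channel, rose in 3XSR (0.84, SE 0.0805, edgeR adjusted p = 1.21e-05) but was lower there than in 1xCtrl (-0.38, edgeR adjusted p = 0.00689). MCOLN3 was as high in MYC-OE (19.2 CPM) as in 3XSR (18.8 CPM), against 10.5 CPM in 3XCTL. The related MCOLN2 rose in 1xSRSF3 (1.65, SE 0.211, edgeR adjusted p = 8.14e-05). In the libraries labelled 1xSRSF2 MCOLN2 passed (0.66, SE 0.208, edgeR adjusted p = 0.0357), a call lost with unscaled totals (0.60), without the filter (0.62), with only the 2 groups in the fit (0.62) or without any one 1xCtrl replicate (from 0.60 to 0.67) or 1xSRSF2 replicate 2 (0.61) or 3 (0.47). The TRPV4 call in 1xSRSF7 (0.72, SE 0.209, edgeR adjusted p = 0.0392) was lost with no filter (0.70), with the replicate block (0.74), with only the 2 groups in the fit (0.71) and without any one library but 1xCtrl replicate 2 (from 0.47 to 0.80). TRPV4 was also at 21.7 CPM in MYC-OE against 9.04 in 3XCTL, without overlap between the libraries.

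In 1xSRSF3, the line with the most TRPC6 and KCNMA1, KCNN4 fell (3.42 against 9.95 CPM; -1.54, SE 0.175, edgeR adjusted p = 4.28e-05). KCNN4 encodes the intermediate-conductance potassium channel, which is gated by calcium alone. ORAI3, a pore of store-operated calcium entry, also fell (3.12 against 7.23 CPM; -1.21, SE 0.104, edgeR adjusted p = 3.29e-06), and shares 1397 of 2643 exon bases with AC135048.1 on its own strand. ATP2A3, a calcium pump of the endoplasmic reticulum, fell there (-0.88, SE 0.233, edgeR adjusted p = 0.0122) and in 3XSR (-0.77, SE 0.133, edgeR adjusted p = 0.00100). The call in 1xSRSF3 was lost with only the 2 groups in the fit (-0.93) and without 1xSRSF3 replicate 1 (-0.90) or 2 (-0.94), and the value was -0.52 without 1xCtrl replicate 2. CACNA1B, an N-type calcium channel pore, rose in 1xSRSF3 (0.89, SE 0.221, edgeR adjusted p = 0.00806), a call lost without 1xCtrl replicate 1 (0.77) or 1xSRSF3 replicate 1 (0.67). CACNB1 fell in 3XSR (-0.57, SE 0.109, edgeR adjusted p = 0.00205). The sodium-calcium exchanger SLC8A1 rose in MYC-OE (11.03 against 4.15 CPM; 1.41, SE 0.109, edgeR adjusted p = 1.37e-06) and 1xSRSF7 (0.61, SE 0.0914, edgeR adjusted p = 0.00104). The calcium pump ATP2B1 fell in the libraries labelled 1xSRSF2 (117 against 172 CPM; -0.56, SE 0.0827, edgeR adjusted p = 0.000389). The diacylglycerol kinase DGKH, which removes the lipid that opens TRPC6, fell in MYC-OE (-0.43 with SE 0.0574, adjusted p = 0.000111 by edgeR) and 1xSRSF7 (-0.39, SE 0.0847, edgeR adjusted p = 0.00695), and DGKA fell in 1xSRSF7 (-0.45, SE 0.0709, edgeR adjusted p = 0.00137). Against 3XCTL, DGKH in 1xSRSF7 had 0.071 (edgeR adjusted p = 0.506) and DGKA -0.057 (edgeR adjusted p = 0.528).

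Markers of other cell types were read beside the channels. Smooth muscle, which uses both channels, has MYH11, CNN1, DES and ACTG2 as markers, and these 4 reached at most 0.205 CPM in any library, while the fifth, SMTN, which epithelial cells also express, was between 30.4 and 77.3 CPM. SMTN was at 37.3 CPM ± 5.38 in 3XCTL, 52.0 ± 3.65 in 3XSR and 36.2 ± 3.58 in MYC-OE (SD, n = 3). Among the single lines and their control SMTN was at 46.3 CPM ± 12.01 in 1xCtrl, 64.5 ± 1.04 in the libraries labelled 1xSRSF2, 69.3 ± 8.68 in 1xSRSF3 and 34.3 ± 3.64 in 1xSRSF7. SMTN, like TRPC6, had its highest mean in 1xSRSF3, was higher in 3XSR than in 3XCTL and was lower in 1xSRSF7 than in 1xCtrl. Unlike TRPC6, SMTN was close to 3XCTL in MYC-OE. In the libraries labelled 1xSRSF2 its mean was near that of 1xSRSF3, whereas TRPC6 was not called there. The SMTN libraries of 1xSRSF3 (60.07 to 77.3 CPM) overlapped those labelled 1xSRSF2 (63.3 to 65.2 CPM) and those of 1xCtrl (37.8 to 60.08 CPM). Of the 5 fibroblast markers LUM and COL1A1 were above 5 CPM in every library, and COL1A2, DCN and PDGFRA did not exceed 0.507 CPM. LUM had its highest mean of each table in the control, at 37.6 CPM ± 2.01 in 3XCTL against 16.0 ± 0.764 in 3XSR and 8.96 ± 0.593 in MYC-OE (SD, n = 3). Among the single lines and their control LUM was at 20.1 CPM ± 3.64 in 1xCtrl, 6.84 ± 0.344 in the libraries labelled 1xSRSF2, 6.28 ± 0.693 in 1xSRSF3 and 12.01 ± 0.695 in 1xSRSF7. The summed fibroblast list ran from 46.5 to 48.4 CPM in 3XCTL, from 22.2 to 25.1 in 3XSR and from 18.6 to 18.7 in MYC-OE. It ran from 27.5 to 31.9 CPM in 1xCtrl and from 15.5 to 16.1 in the libraries labelled 1xSRSF2. In 1xSRSF3 it ran from 14.6 to 16.0 CPM and in 1xSRSF7 from 19.9 to 23.2. These sums include LUM, so a fall in them need not be shared by the other markers of the list. COL1A1 was between 5.46 and 15.7 CPM over all libraries, and its levels by group were not compared. The part of SMTN, of the fibroblast list and of the neuron list in the channel results was not tested. In a bulk culture, fewer cells that express a gene and less RNA per cell cannot be told apart.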

How the data were processed

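Gene-level RNA-seq counts of 21 libraries were used as the authors deposited them, as whole-number counts per gene in 2 tables of 60668 Ensembl identifiers, not scaled. Per the labels' protocols, polyA-selected stranded libraries were sequenced as paired reads on a NovaSeq. The submitters' processing notes name Trimmomatic 0.39, STAR, StringTie 2.1.3b and GRCh38.p13, with no role or order; the counting step, its strand setting and the annotation are not given in the sources used here. Symbols, and positions, exon overlaps, lengths and GC content from GENCODE release 29, were joined by identifier without version.

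Each table was fitted over all its groups with edgeR 4.0.16 in R 4.3.3 (filterByExpr with minimum count 10 and total 15, TMM scaling, robust quasi-likelihood F test, Benjamini-Hochberg adjustment over all genes tested, threshold 0.05). The SE is the absolute log2 fold change over the square root of F. Differences of effects and joint levels used 1 fit over both tables. Members, lists and rules were chosen with earlier results of these data known. Named genes are the members, the measured relatives, and per contrast up to 3 highest and 3 lowest called genes of the other lists at a mean of 1 CPM or more without overlap between groups; pattern likeness required a range of group means of at least 1 on the log2 scale. Replicates differed by more than counting error (chi-square between 15.9 and 275 for each degree of freedom). The highest values came from 1xCtrl replicate 2 (194 against replicate 1 and 275 against replicate 3, which differed by 26.2). Next was 3XCTL replicate 2 (108 and 82.9, where replicates 1 and 3 differed by 25.6). Alternatives were other scalings, filters, DESeq2 1.42.0, the 2 groups alone, the replicate block, removal of each library's GC trend over 50 bins, summed overlapping genes and each replicate left out; the control of the other table was added later. In data simulated with 200 genes changed 2-fold, 81.0% were called with the right sign in the 3XSR comparison (23160 genes) and 68.5% in the 1xSRSF3 comparison (24362 genes). The changed genes were drawn at a mean of at least 0.3 CPM, so these shares do not cover lower genes. Of the simulated calls 5.26% and 2.14% were false. Figures were drawn with matplotlib 3.10.9. A gene of the lists is not reported here.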

Additional observations from a re-analysis of the deposited data

How the results depend on the processing

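Of 1912 alternative values computed for 117 results, 1794 kept their direction and their side of the threshold, or for counts stayed within 1.5 times. With the replicate block 5 members were called in 3XSR in place of 4, through KCNMB4, and 5, 3, 3 and 3 in MYC-OE, the libraries labelled 1xSRSF2, 1xSRSF3 and 1xSRSF7, as without it; for the pathway lists the block gave 32, 40, 17, 25 and 15 calls in the same order. Same-numbered libraries shared only a number (correlations of their deviations from -0.175 to 0.0115). Under the block KCNMB4 in 1xSRSF3 changed sign to 0.017, the TRPV4 call in 1xSRSF7 was lost, and no other call of a member or named gene against its control changed. Pathway calls moved beyond 1.5 times with the GC trend removed (32, 46 and 32 in the single lines) and in 1xSRSF7 with only the 2 groups (11). They also did so against the control of the other table (12 in 3XSR, 39, 44 and 39 in the single lines). The cause was not tested. Among the alternatives, the share of all genes called was computed against the control of the other table alone. It was 15.4% in 3XSR, 34.7% in MYC-OE, and 34.2%, 40.5% and 30.9% in the libraries labelled 1xSRSF2, 1xSRSF3 and 1xSRSF7. Against that control 5 members were called in the libraries labelled 1xSRSF2 and 5 in 1xSRSF7. Against the control of the other table, directions turned for TRPC1 in all 5 lines (-0.53 in 3XSR, -0.52 in MYC-OE, 1.37, 1.81 and 1.72 in the single lines), TRPC6 in 1xSRSF7 (2.05), KCNMB4 in 1xSRSF3 (0.86), TRPC4 in the libraries labelled 1xSRSF2 (1.07) and in 1xSRSF3 (1.47), KCNMB3 in 3XSR (-0.20), MYC-OE (-0.27), 1xSRSF3 (0.36) and 1xSRSF7 (0.35), CACNA2D1 in 3XSR (-0.14), MYC-OE (-0.49) and the libraries labelled 1xSRSF2 (2.26), TRPA1 (-0.10) and MCOLN3 (-0.38) in 3XSR and DGKH in 1xSRSF7 (0.071). Uncalled values near 0 changed sign for TRPC1 between 1xSRSF3 and 1xSRSF7 (-0.0100 with total counts, -0.014 with the GC trend removed), LRRC38 in 1xSRSF7 (-0.075 with the GC trend removed) and TRPC4 in 1xSRSF7 (-0.0017 with upper-quartile scaling). With each replicate left out in turn, pathway calls in 1xSRSF7 ranged from 13 to 35, and the log2 values that crossed 0 ranged from -0.018 to 0.088 for TRPC1 between MYC-OE and 3XSR, from -0.21 to 0.33 for KCNMB4 and from -0.15 to 0.031 for TRPC1 in 1xSRSF3, from -0.028 to 0.10 for LRRC38 and from -0.098 to 0.13 for TRPC4 in 1xSRSF7, from -0.013 to 0.17 for TRPC1 between 1xSRSF3 and 1xSRSF7, and for the excess of the KCNMB4 step in 3XSR from -0.95 to 0.19 over 1xSRSF7 and from -0.023 to 1.12 over the libraries labelled 1xSRSF2. The cause of these turns was not tested. KCNMB4 had from 27 to 410 counts per library, and LRRC26 at most 1.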
